A study of Homo sapiens with 16 samples.

Results

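The snoRNA host genes are transcribed genes that carry small nucleolar RNAs inside their introns. Members were found by symbol, as every gene named SNHG with a number together with GAS5, ZFAS1, DANCR and EPB41L4A-AS1, without use of any measured value. The rule found 32 members among 60620 gene identifiers present in all files. Of the 32, 26 reached a mean of 1 CPM (counts scaled to library size) over the 16 libraries, as did 13448 genes in all, and the comparisons below are described for these 26.

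After a host transcript is spliced, the excised intron is trimmed to the mature snoRNA. Box C/D snoRNAs guide ribose methylation of ribosomal RNA with the methyltransferase fibrillarin, and box H/ACA snoRNAs guide pseudouridylation with dyskerin, while scaRNAs guide the same changes on spliceosomal RNAs in Cajal bodies. The spliced exons of many hosts encode no protein, begin with a pyrimidine tract like the messages of ribosomal proteins, and are degraded by nonsense-mediated decay when translated. GAS5 was first found as a transcript that accumulates in growth-arrested cells, ZFAS1 is named as the antisense neighbour of ZNFX1, and DANCR for antagonism of differentiation. The transcription factor Myc is known as an activator of genes for ribosome production.

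Polyadenylated RNA was measured in MDA-MB-231, an established human triple-negative breast cancer line, as parental wild-type cells (parental 231) and as cells with a CRISPR/Cas9 knockout of TXNIP (231:TKO), a gene for an arrestin-family protein that restrains glucose uptake. Each was sequenced untreated in 2 libraries, and, 48 hours after transfection with an siRNA that targets Myc (siMyc) or with a non-targeting control (siNT), in 3 libraries per group, which makes 16 libraries in 6 groups. The 231:TKO cells were isolated from single cells after a knockout plasmid, so a difference from parental 231 may belong to the clone as well as to the gene. All libraries had between 18953668 and 59799444 counts assigned to genes. The study calls the replicates of untreated cells and of 231:TKO with siRNA biological, without saying how they were separated, and p-values measure the spread between these samples.

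The targeted genes followed the labels. TXNIP stood at 283 CPM in both parental 231 libraries and at 12.4 and 45.5 CPM in 231:TKO, and in the siRNA libraries at 302 CPM or more in parental 231 and at 10.2 CPM or less in 231:TKO. MYC fell from 132 ± 11.8 to 58.5 ± 0.38 CPM (SD, n = 3) with siMyc in 231:TKO and from 129 ± 3.18 to 65.7 ± 1.64 CPM (SD, n = 3) in parental 231. Of the markers of the line, ESR1 and PGR stayed at 0.31 CPM or less, VIM was at 1813 CPM or more, and the blood marker PTPRC at 1.47 CPM or less. The basal marker KRT14 was at 0.49 CPM or less. The epithelial marker KRT8 was high, at 231 to 275 CPM in the untreated libraries. In the siRNA libraries KRT8 was at 651 to 893 CPM in 231:TKO and at 1289.5 to 1892 CPM in parental 231. ERBB2, a gene that the triple-negative class is defined by not amplifying, was present at 76.2 to 106 CPM, and CDH1, low in mesenchymal-like cells, was at 4.13 to 9.42 CPM in parental 231 and at 1.08 CPM or less in 231:TKO. The untreated libraries were sequenced as single reads and the siRNA libraries as read pairs, and the siRNA libraries of 231:TKO and of parental 231 were counted with different annotation releases, so these differences cannot be told apart from treatment in one case and from the knockout in the other. Replicate 1 of parental 231+siNT and replicate 3 of parental 231+siMyc stood apart from their groups in the same way, and the counts of members called in comparisons that use them are given with and without them. In bulk RNA, fewer cells with a transcript and less of it per cell cannot be told apart.

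RefSeq places a named snoRNA or scaRNA inside each of the 26 members. By these names 12 members hold box C/D snoRNAs only, 10 hold box H/ACA snoRNAs only, GAS5 and SNHG12 hold both kinds, and SNHG10 and SNHG20 hold a scaRNA. GAS5 holds 11 of them, SNHG1 8, SNHG17 4 of the SNORA71 family, and ZFAS1 3 of the SNORD12 family. The snoRNAs themselves were scarcely counted, since 2 of 717 snoRNA genes in the files reached 1 CPM. What follows is therefore about the host transcripts.

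The sequence at the transcription start is where a pyrimidine tract would lie, and it is shown for 10 members. The following windows run from 30 bases before to 30 bases after the RefSeq start (GRCh38.p14, given on the gene's strand, 5′ to 3′). They belong to the 7 most abundant members, to SNHG4 and SNHG17, which had the largest called decreases with siMyc among the rest that had a promoter entry, and to SNHG18, the member that rose. Capitals mark, in each tract, the pyrimidines from the first C that lies within 10 bases of the start and is followed by at least 4 more, up to the next purine, so a tract can extend further upstream in lower case, as in SNHG29.
SNHG29 (chr17:16438957-16439016, plus strand): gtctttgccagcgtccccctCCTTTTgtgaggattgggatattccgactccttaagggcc
SNHG5 (chr6:85678704-85678763, minus strand): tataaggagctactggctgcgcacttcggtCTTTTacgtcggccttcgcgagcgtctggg
ZFAS1 (chr20:49278612-49278671, plus strand): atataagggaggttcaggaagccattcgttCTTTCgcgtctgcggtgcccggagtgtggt
SNHG1 (chr11:62855856-62855915, minus strand): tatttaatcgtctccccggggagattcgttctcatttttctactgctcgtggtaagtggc
SNHG32 (chr6:31834886-31834945, plus strand): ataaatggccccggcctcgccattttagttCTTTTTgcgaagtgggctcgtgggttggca
GAS5 (chr1:173869016-173869075, minus strand): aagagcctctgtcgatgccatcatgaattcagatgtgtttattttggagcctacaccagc
SNHG16 (chr17:76557734-76557793, plus strand): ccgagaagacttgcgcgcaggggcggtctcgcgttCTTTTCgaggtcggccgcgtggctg
SNHG4 (chr5:139274071-139274130, plus strand): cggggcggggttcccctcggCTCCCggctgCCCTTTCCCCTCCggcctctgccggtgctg
SNHG17 (chr20:38435299-38435358, minus strand): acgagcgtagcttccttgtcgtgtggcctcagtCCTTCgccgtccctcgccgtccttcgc
SNHG18 (chr5:9546170-9546229, plus strand): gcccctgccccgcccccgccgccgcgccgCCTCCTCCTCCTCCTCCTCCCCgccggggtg

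Promoter entries existed for 22 of the 26 members, and each of these was counted with 1 promoter. The 13448 genes at 1 CPM or more had 15153 promoters. Some of them were thus counted with more than 1 promoter in the shares here and for the E-box below. Such a C with at least 4 pyrimidines after it lay within 10 bases of the start in 15 of the 22 (68.2%), against 33.9% of the 15153 promoters of genes at 1 CPM or more. At the first transcribed base itself, 7 of 22 members had it (31.8%), against 5.17% of those promoters. These 7 were SNHG5, ZFAS1, SNHG32, SNHG4, SNHG12, SNHG18 and SNHG19, and in SNHG18 the tract begins before that base. The windows of SNHG1 and GAS5, as drawn around the RefSeq start, had none.

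The E-box CACGTG, which Myc with its partner Max can bind, reads the same on both strands. It was present in 2 of the 22 promoters (9.09%), of 250 bases before to 50 after the start, and in 9.24% of the promoters of genes at 1 CPM or more. A match is a description of letters and not a binding site, and no match says only that these letters are absent from this window. Both promoters that hold it are shown, minus and plus strand as named, with the motif in capitals.
SNHG7 (chr9:136728135-136728434, minus strand): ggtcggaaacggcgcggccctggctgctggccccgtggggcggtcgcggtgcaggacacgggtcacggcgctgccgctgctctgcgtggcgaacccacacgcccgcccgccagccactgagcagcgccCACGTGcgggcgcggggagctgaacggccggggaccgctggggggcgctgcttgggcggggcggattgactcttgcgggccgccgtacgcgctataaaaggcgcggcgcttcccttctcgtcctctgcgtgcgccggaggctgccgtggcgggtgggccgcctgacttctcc
SNHG30 (chr17:35567864-35568163, plus strand): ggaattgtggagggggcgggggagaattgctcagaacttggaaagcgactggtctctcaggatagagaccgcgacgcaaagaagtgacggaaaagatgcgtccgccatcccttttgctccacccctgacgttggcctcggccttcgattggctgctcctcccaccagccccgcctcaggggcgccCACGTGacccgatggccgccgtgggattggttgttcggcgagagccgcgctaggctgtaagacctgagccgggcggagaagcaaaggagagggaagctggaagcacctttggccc

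Levels of the members spanned more than 2 orders of magnitude. SNHG29, host of SNORD49A, SNORD49B and SNORD65, was the most abundant at a mean of 340 CPM over the 16 libraries, followed by SNHG5 at 105.9, ZFAS1 at 62.8, SNHG1 at 61.2, SNHG32 at 60.9 and GAS5 at 60.3 CPM. At the low end SNHG25 had a mean of 1.54 and SNHG9 of 1.5 CPM. Per kilobase of exon, SNHG29 again led at 47.3 CPM per kb, with SNHG32 at 33.8, SNHG6 at 29.6, SNHG1 at 15.4 and GAS5 at 12.4, while SNHG5 was at 8.40. Of the 26 members, 24 had a mean of at least 1 CPM in every group, the exceptions being SNHG25 and SNHG9. All 32 members together made up 1112 ± 19.6 CPM in parental 231 and 1120 ± 20.8 CPM in 231:TKO (SD, n = 2). In the siRNA libraries they made up 1008 ± 46.4 CPM in 231:TKO+siNT and 739.7 ± 9.47 in 231:TKO+siMyc (SD, n = 3). In parental 231 they made up 1261 ± 255 CPM with siNT and 928 ± 169 with siMyc (SD, n = 3).

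**Figure D1:**
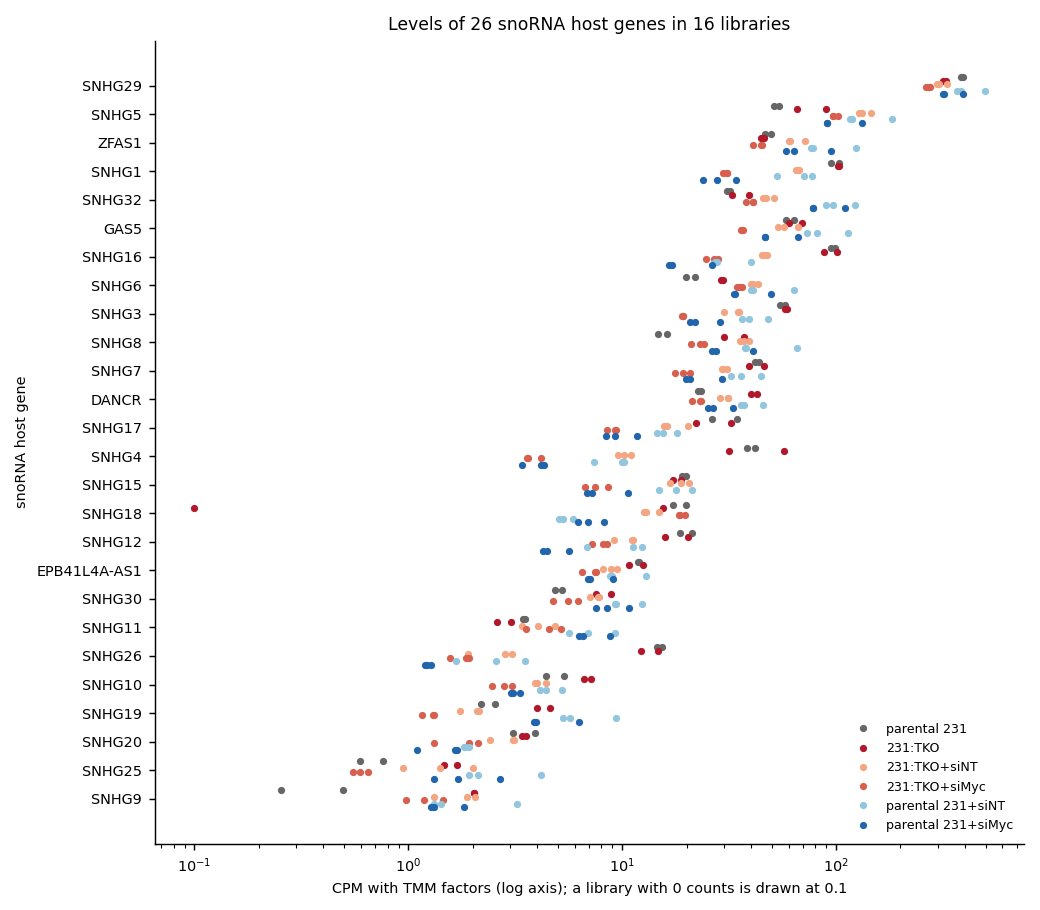
CPM of each of the 26 members (rows, ordered by mean) in each of the 16 libraries (points, log axis), by group. SNHG29 lies above all others at 265 to 497 CPM, and SNHG18 in 231:TKO replicate 2, which had 0 counts, is drawn at 0.1.

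SNHG4 and SNHG26 differed most between the untreated and the siRNA libraries. SNHG4, host of SNORA74A and SNORA74D, had 38.5 and 41.7 CPM in parental 231 and 31.6 and 57.2 CPM in 231:TKO, against 3.40 to 10.97 CPM in the 12 siRNA libraries. SNHG26, host of SNORD93, had 12.2 to 15.4 CPM untreated and 1.2 to 3.52 CPM in the siRNA libraries. No untreated library overlapped any siRNA library for either gene, and read type and sequencing run cannot be told apart from the siRNA here. SNHG4 shares 626 exon bases on the same strand with MATR3, so its level is uncertain. The same holds for other members with exon bases shared on their strand, among them SNHG5 (785 bases, PKMP3 among the sharing genes), SNHG20 (651, SEC14L1 among them), SNHG1 (612, entries without a symbol), SNHG3 (448, RCC1 among them) and SNHG25 (135 of its 278 exon bases).

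The first comparison asked what siMyc changes in TXNIP knockout cells. In 231:TKO, siMyc lowered 24 of the 26 members and raised 1, SNHG18 (quasi-likelihood F-test of edgeR, p adjusted over all genes by Benjamini and Hochberg). Of the 13419 genes at 1 CPM or more tested, 22.1% were lower and 20.7% higher. The median log2 change of the members was -0.60, against 0.00 over those genes. The summed level of all 32 members went from 1008 to 739.7 CPM. In 22 members every siMyc library lay below every siNT library, a pattern found in 23.1% of the genes, and in SNHG18 every siMyc library lay above (30.8%).

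The largest decreases were those of SNHG4 (ENSG00000281398, chr5:139274102-139284899 on GRCh38, plus strand) and SNHG15 (ENSG00000232956, chr7:44983023-44986961, minus strand), both box H/ACA hosts. SNHG4 had 10.2, 9.54 and 10.97 CPM with siNT and 3.57, 3.62 and 4.17 CPM with siMyc. SNHG15, host of SNORA9, had 16.8, 20.5 and 18.9 CPM with siNT and 8.62, 7.45 and 6.71 CPM with siMyc. In neither gene did the groups overlap, and the log2 changes were -1.47 ± 0.10 for SNHG4 (SE, adjusted p = 1.3e-09) and -1.34 ± 0.10 for SNHG15 (SE, adjusted p = 1.9e-09). SNHG25, a box C/D host of SNORD104, was low, at 0.950, 2.02 and 1.41 CPM with siNT and 0.595, 0.648 and 0.553 CPM with siMyc (34, 66 and 50 counts against 21, 24 and 22), a log2 change of -1.30 ± 0.26 (SE, adjusted p = 0.00061). Its siMyc libraries lay close together below all siNT libraries, which were spread wider.

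Among the 8 most abundant hosts, SNHG1 (ENSG00000255717, chr11:62851984-62855953, minus strand) fell most and SNHG29 (ENSG00000175061, chr17:16438767-16478678, plus strand) least. SNHG1 had 67.4, 66.5 and 64.8 CPM with siNT and 29.6, 30.9 and 30.9 CPM with siMyc, and the fold was 0.449 (log2 change -1.15 ± 0.06, SE, adjusted p = 1.9e-11). SNHG16, host of the SNORD1 family, had 45.2, 46.1 and 47.7 CPM with siNT and 27.0, 24.8 and 28.1 CPM with siMyc (log2 change -0.83). GAS5 had 53.3, 66.1 and 56.8 CPM with siNT and 36.3, 35.9 and 36.9 CPM with siMyc (log2 change -0.73). In all of these, siMyc libraries lay below siNT libraries without overlap.

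ZFAS1 had 61.1, 71.3 and 60.2 CPM with siNT and 41.0, 45.3 and 44.7 CPM with siMyc (log2 change -0.59). SNHG5, host of the SNORD50 pair, had 128, 146 and 132 CPM with siNT and 96.4, 96.9 and 103 CPM with siMyc (log2 change -0.49). SNHG32 had 45.6, 51.2 and 47.2 CPM with siNT and 41.0, 41.0 and 37.8 CPM with siMyc (log2 change -0.30). These hosts were lower in all siMyc libraries, by a smaller step than SNHG1.

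SNHG6, host of SNORD87, had 39.99, 43.0 and 40.9 CPM with siNT and 34.4, 35.3 and 36.5 CPM with siMyc (log2 change -0.26). SNHG29 had 298, 329 and 303 CPM with siNT and 271, 265 and 275 CPM with siMyc, a log2 change of -0.23 ± 0.05 (SE, adjusted p = 0.00086). The groups still did not overlap for either gene. SNHG18 (ENSG00000250786, chr5:9546200-9550609, plus strand), host of SNORD123, moved the other way, with 12.7, 14.9 and 12.9 CPM with siNT and 19.8, 18.7 and 18.4 CPM with siMyc (log2 change 0.46 ± 0.08, SE, adjusted p = 0.00012). SNHG11, host of SNORA60 and SNORA71E, was the member that did not pass the test, with overlapping groups and a log2 change of 0.08.

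**Figure D2:**
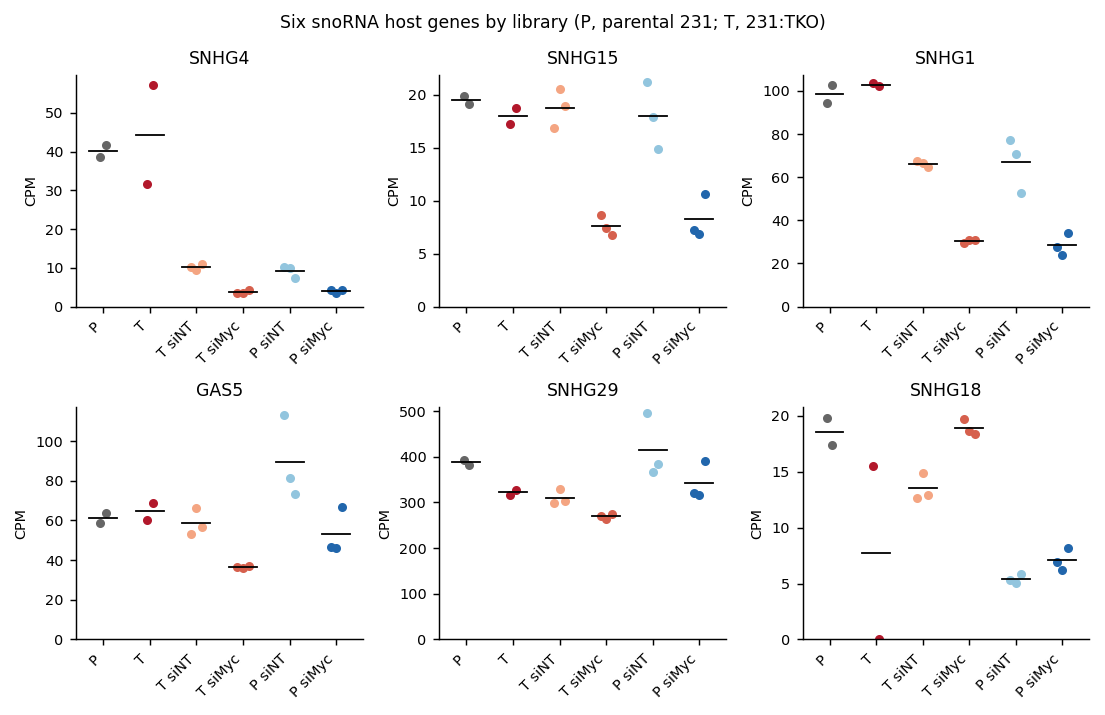
CPM of SNHG4, SNHG15, SNHG1, GAS5, SNHG29 and SNHG18 in each library (points) of the 6 groups (P, parental 231; T, 231:TKO), with group means as lines. With siMyc in 231:TKO the first 5 genes lie below siNT without overlap and SNHG18 lies above.

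The other called members had log2 changes between these. SNHG17 fell by 0.98, SNHG3 by 0.84, SNHG8 by 0.75 and SNHG7 by 0.67, all box H/ACA hosts, and the scaRNA hosts SNHG20 and SNHG10 by 0.72 and 0.60. SNHG19 fell by 0.70, SNHG26 by 0.59, SNHG9 by 0.58, SNHG30 by 0.48, DANCR by 0.47, SNHG12 by 0.44 and EPB41L4A-AS1 by 0.33. By snoRNA class, 11 of the 12 box C/D hosts were lower and 1 higher (median -0.54), and 9 of the 10 box H/ACA hosts were lower (median -0.71), a difference that was not tested. When all 12 siRNA libraries were fitted together, so that the wider spread of the parental libraries entered the error, 11 members were lower and 1 higher, beside 8.14% and 9.38% of the genes at 1 CPM or more.

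The machinery that acts on these RNAs was read from lists of its genes. All 4 box C/D core proteins were lower with siMyc in 231:TKO, with NOP56 at -0.82 and the methyltransferase FBL at -0.74 on the log2 scale. Of the 4 box H/ACA core proteins 3 were lower, led by the pseudouridine synthase DKC1 at -0.81 and by NHP2 at -0.70, while NOP10 stood at -0.09 and did not pass. Of 10 assembly factors 6 were lower, with NOLC1 at -0.96 and RUVBL1 at -0.75. Of 10 factors of nonsense-mediated decay, the pathway that degrades translated host exons, 4 were lower and by less, with UPF3B at -0.30 and SMG9 at -0.21. The lists of core proteins had medians of -0.69 and -0.60, the assembly list -0.34 and the decay list -0.10.

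Other genes whose span holds a snoRNA gene on the same strand were set beside the members. They were found by position, so they include noncoding genes and pseudogenes, such as LINC00888 and RPL32P3. NOP56, NOP58 and DKC1 from the core protein lists are among them too. All 28 hosts that encode ribosomal proteins were lower (median -0.46), with RPS2 at -0.76 and RPL32 at -0.73. Of the 152 remaining hosts at 1 CPM or more, 65 were lower and 15 higher (median -0.13), with ODC1, which makes polyamines, and WDR43, a ribosome biogenesis factor, both at -0.97, and MAGED2 at 0.67 and ITGB8 at 0.59. No test of the difference between these lists and the members was made.

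Genes that start next to a member on the other strand were compared with it. SLC3A2, the heavy chain of amino acid transporters, starts 149 bases from SNHG1 and had a log2 change of -0.07, against -1.15 for SNHG1. ZNFX1 (248 bases from ZFAS1) had -0.09, ZBTB37 (800 bases from GAS5) -0.09 and TRAF7 (340 bases from SNHG19) -0.16, none of which passed the test. RPS2, 118 bases from SNHG9, was lower by the same test, and SEMA5A, 125 bases from SNHG18, was higher at 0.96.

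**Figure D3:**
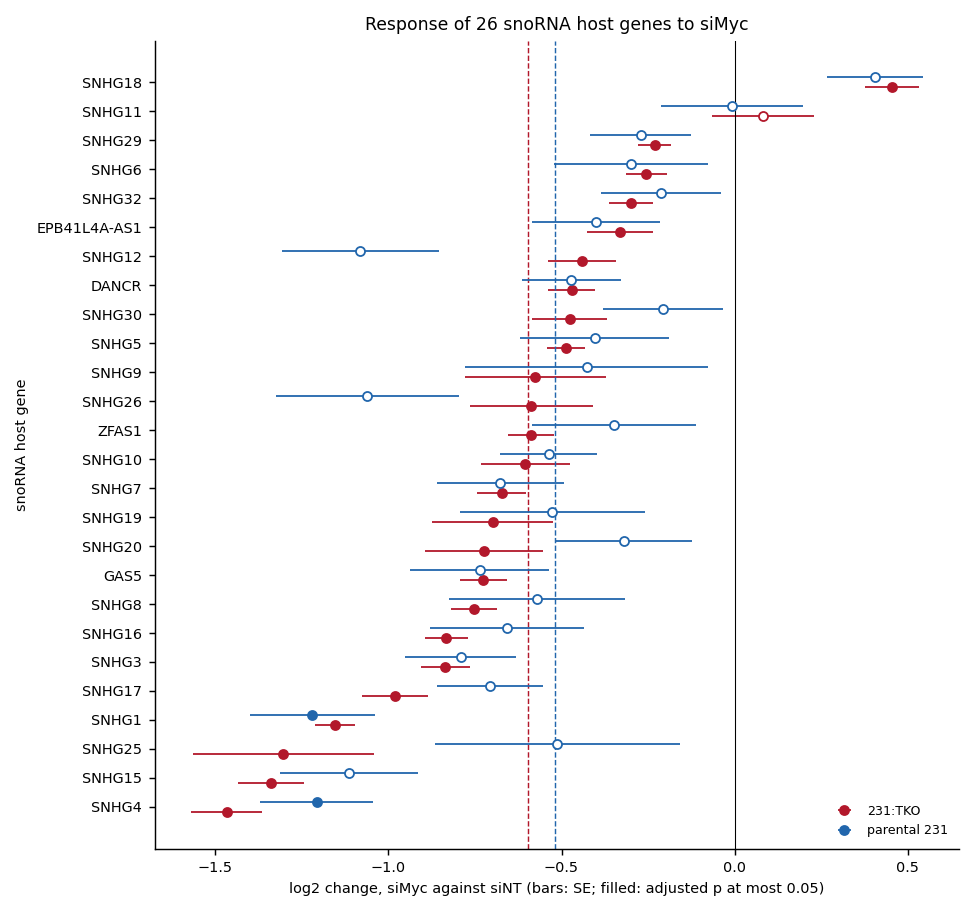
Log2 change with siMyc against siNT for each of the 26 members (rows) in 231:TKO and in parental 231, with standard errors as bars, filled symbols for adjusted p of at most 0.05, and dashed lines at the median of the 26 members (-0.60 and -0.52). In 231:TKO 25 members pass, in parental 231 SNHG1 and SNHG4 do.

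The same question in parental 231 gave fewer calls. With siMyc, 2 of the 26 members were lower, SNHG1 and SNHG4, and none was higher, where 0.618% of the 13439 genes at 1 CPM or more were lower and 0.417% higher. SNHG1 had 77.1, 70.7 and 52.8 CPM with siNT and 27.6, 23.8 and 34.2 CPM with siMyc (log2 change -1.22 ± 0.18, SE, adjusted p = 0.042). SNHG4 had 10.2, 9.97 and 7.41 CPM with siNT and 4.17, 3.40 and 4.30 CPM with siMyc (log2 change -1.21 ± 0.16, SE, adjusted p = 0.038). The groups of neither overlapped. The median log2 change of the members was -0.52, 25 of 26 were below 0 (49.6% of the genes at 1 CPM or more were), and 13 had an unadjusted p under 0.05 (50%, against 20.7% of the genes).

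In 13 members every siMyc library lay below every siNT library (14.8% of the genes did) and SNHG18 lay above without overlap (12.6%). GAS5 had 113, 81.4 and 73.3 CPM with siNT and 46.7, 46.3 and 66.7 CPM with siMyc, without overlap. SNHG29 had 497, 367 and 383 CPM with siNT and 320, 316 and 391 CPM with siMyc. ZFAS1 had 124, 78.0 and 76.1 CPM with siNT and 63.8, 58.6 and 94.4 CPM with siMyc, and in it as in SNHG29 the groups overlapped because siMyc replicate 3 was higher than the lower siNT libraries.

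SNHG5 had 183, 119 and 116 CPM with siNT and 90.4, 91.0 and 132 CPM with siMyc. SNHG32 had 123, 96.4 and 89.9 CPM with siNT and 77.7, 78.3 and 110 CPM with siMyc. SNHG16 had 40.2, 27.9 and 27.2 CPM with siNT and 17.1, 16.5 and 26.4 CPM with siMyc. SNHG6 had 63.5, 40.1 and 40.8 CPM with siNT and 33.5, 33.4 and 49.6 CPM with siMyc, and of these 4 only SNHG16 kept its groups apart.

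The same libraries were high each time, replicate 1 of parental 231+siNT and replicate 3 of parental 231+siMyc. In these 2 libraries 25 and 26 of the 26 members lay above their group's mean, by a median of 0.27 and 0.29 on the log2 scale. Over the 13448 genes at 1 CPM or more their deviations from the group means correlated with r = 0.87, and they had the highest shares of counts in the 10 leading genes (5.71% and 5.85%). What sets them apart was not tested. Without replicate 1 of parental 231+siNT 2 members were lower, beside 0.744% of the genes at 1 CPM or more lower and 0.432% higher. Without replicate 3 of parental 231+siMyc 5 members were lower, beside 0.513% lower and 0.193% higher. Without any other single library of this comparison no member was called, in fits that called 0 of these genes. With a term for this pair in the fit, 21 members were lower and 1 higher, and with the pair left out 20 were lower. The calls rose over all genes too, to 21.9% lower and 22.8% higher of the genes at 1 CPM or more with the term, and to 17.5% and 16.1% with the pair left out.

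**Figure D4:**
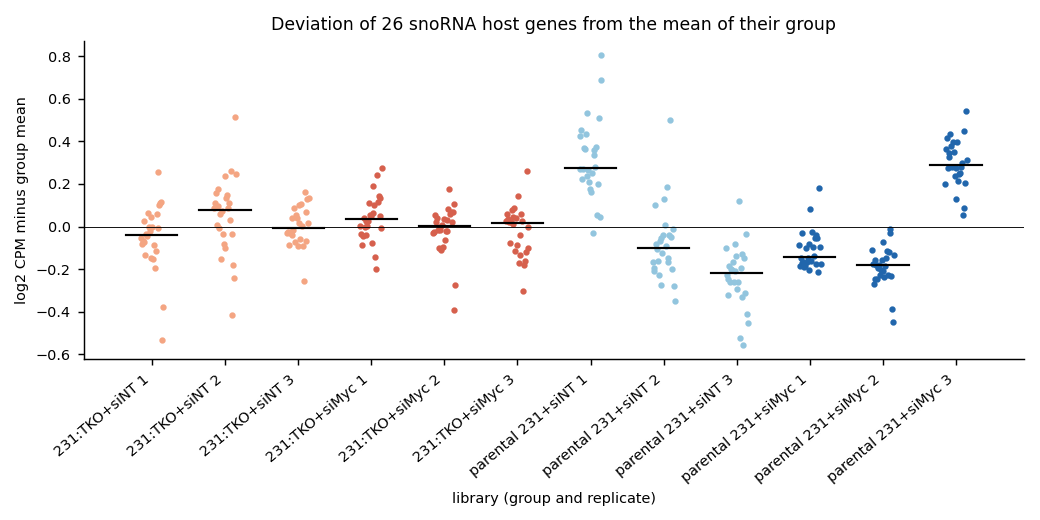
Deviation of each of the 26 members (points) from its group's mean on the log2 scale, in each of the 12 siRNA libraries, with the median as a line. The medians of parental 231+siNT replicate 1 and parental 231+siMyc replicate 3 are 0.27 and 0.29, with 25 and 26 of the 26 members above 0.

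The same lists were read in parental 231. Of the box C/D proteins 1 of 4 was lower and of the box H/ACA proteins 1 of 4, with list medians of -0.54 and -0.43, and none of the 10 assembly factors or 10 decay factors passed. The 28 ribosomal protein hosts were all below 0 (median -0.33) with none past the test, and 6 of the other 152 hosts were lower. With the pair of libraries left out, 4 box C/D proteins, 3 box H/ACA proteins, 6 assembly factors, 2 decay factors, 25 ribosomal protein hosts and 53 other hosts were lower, and 15 other hosts were higher.

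The difference between the responses was tested as an interaction over the 12 siRNA libraries. It was called for 0 of the 26 members and for 0 of 25812 genes by edgeR, while DESeq2 called no member and 6 genes. At an unadjusted p under 0.05 there was 1 of the 26 members (3.85%), beside 477 of 13445 genes at 1 CPM or more (3.55%), a like share. That member was SNHG12, with a log2 change of -0.44 in 231:TKO and -1.08 in parental 231 (difference 0.67, 95% interval 0.12 to 1.22, unadjusted p = 0.020 from the edgeR fit across all genes; the adjusted p was 1). For SNHG1 the difference was 0.09 (95% interval -0.30 to 0.49), for GAS5 0.04 (-0.46 to 0.53) and for SNHG4 -0.23 (-0.65 to 0.18). The intervals leave room for differences of this size, so responses that act alike are not shown.

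The knockout alone was compared in the untreated cells. In 231:TKO 4 of the 26 members were higher than in parental 231 and none was lower, where 7.97% of 13357 genes at 1 CPM or more were higher and 5.46% lower. With DESeq2's size factors in place of TMM, 4 members were higher and 1 lower, beside 7.82% and 5.54% of those genes. SNHG9 (ENSG00000255198, chr16:1964959-1965509, plus strand), host of SNORA78, had 0.254 and 0.498 CPM in parental 231 and 2.03 and 2.02 CPM in 231:TKO (log2 difference 2.41 ± 0.38, SE, adjusted p = 0.025). Its counts were low, at 5 and 10 in parental 231 against 61 and 59 in 231:TKO, so the size of this difference is uncertain. It also shares 127 of its 551 exon bases with another entry on its strand. SNHG8, host of SNORA24, had 14.7 and 16.2 CPM in parental 231 and 30.03 and 37.1 CPM in 231:TKO (1.11 ± 0.14, adjusted p = 0.015). DANCR, host of SNORA26, had 23.3 and 22.7 CPM in parental 231 and 39.9 and 42.6 CPM in 231:TKO (0.83 ± 0.08, adjusted p = 0.011). Both 231:TKO libraries lay above both parental 231 libraries in each.

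SNHG6 had 19.9 and 21.8 CPM in parental 231 and 28.8 and 29.7 CPM in 231:TKO, the smallest called difference (0.48 ± 0.09, SE, adjusted p = 0.041). The other abundant members were SNHG29 at 393 and 383 CPM against 317 and 327 CPM, SNHG5 at 54.2 and 51.5 against 89.9 and 65.5, ZFAS1 at 46.6 and 49.8 against 46.0 and 44.6, SNHG1 at 94.3 and 103 against 103.6 and 102.3, and GAS5 at 58.5 and 63.7 against 60.1 and 69.0, parental 231 first. None of these passed the test, and the groups overlapped for SNHG1 and GAS5. SNHG16, at 95.2 and 99.1 CPM against 101 and 87.8, and SNHG32, at 31.9 and 30.9 against 32.8 and 39.2, did not pass either. The median log2 difference of the members was 0.05, with 10 higher without overlap (33.8% of the genes) and 5 lower (30.7%).

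Position moved with some of these values. SNHG8 and DANCR both lie on chromosome 4, and the median log2 difference of the genes at 1 CPM or more within 10 Mb was 0.54 around SNHG8 (52 genes) and 0.55 around DANCR (44 genes), leaving 0.57 and 0.29 above their surroundings. Around SNHG29 it was -0.32, beside -0.28 for the gene itself. Around SNHG9 and SNHG6 it was -0.09 and 0.04. The part of a gain or loss of chromosome segments in these differences was not tested. None of the 4 calls held when either parental 231 library was left out, fits in which no gene at all was called, and 13 and 11 members were called without replicate 1 and replicate 2 of 231:TKO, each leaving a lone library assumed to vary like the other group. In those 2 fits 25.1% and 25% of the genes at 1 CPM or more were higher and 25.1% and 23.9% lower, against 10 and 8 members higher and 3 lower in each.

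SNHG18 differed between the 231:TKO replicates, with 15.5 CPM in replicate 1 and 0 counts in replicate 2, which allows up to 0.103 CPM (3 counts), against 19.8 and 17.4 CPM in parental 231. SEMA5A, its divergent neighbour, had 42.0 and 39.1 CPM in parental 231 and 18.7 and 0 CPM in 231:TKO. In all, 4 genes at 10 CPM or more in replicate 1 had 0 counts in replicate 2, and none the other way. SNHG18 was at 12.7 CPM or more in all 6 siRNA libraries of 231:TKO.

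Under siNT the knockout difference was mixed. In 231:TKO+siNT 3 members were higher and 7 lower than in parental 231+siNT, where 22.4% and 28.2% of 13445 genes were, and the median over the members was -0.18. SNHG18 had 12.7, 14.9 and 12.9 CPM against 5.29, 5.07 and 5.87 CPM in parental 231+siNT (log2 difference 1.36 ± 0.12, SE, adjusted p = 5.9e-06). SNHG20 had 3.10, 2.42 and 3.13 CPM against 1.92, 1.84 and 1.82 CPM (0.67 ± 0.16, adjusted p = 0.0079). SNHG16 was higher by 0.58 ± 0.14 (adjusted p = 0.0065). All 231:TKO+siNT libraries lay above all parental 231+siNT libraries in these 3.

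SNHG19, host of SNORD60, had 2.15, 1.74 and 2.09 CPM in 231:TKO+siNT against 9.39, 5.73 and 5.30 CPM in parental 231+siNT (log2 difference -1.73 ± 0.22, SE, adjusted p = 0.00014). SNHG32 had the values given above, a difference of -1.07 ± 0.12 (adjusted p = 4.5e-05). SNHG11 had 4.02, 4.86 and 3.38 CPM against 9.22, 6.91 and 5.64 CPM (-0.79 ± 0.19, adjusted p = 0.0073). These 3 were lower in every 231:TKO+siNT library. GAS5 (-0.57), SNHG30 (-0.42), SNHG29 (-0.39) and DANCR (-0.33) were lower too, and the median around SNHG32 was -0.42. Leaving out replicate 1 of 231:TKO+siNT left 6 members called, beside 16.8% of the genes at 1 CPM or more higher and 20.9% lower. Leaving out its replicate 3 also left 6, beside 16.5% and 20.7%. Leaving out replicate 1 of parental 231+siNT gave 15 members, beside 30.5% and 34.8%. SNHG5 was then higher in 231:TKO+siNT (0.25, adjusted p = 0.00029) in place of 0.00.

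Under siMyc 3 members were higher and 10 lower in 231:TKO, where 25.3% and 29.4% of the genes were, with a median over the members of -0.22. SNHG18 had 19.8, 18.7 and 18.4 CPM against 6.94, 6.22 and 8.21 CPM in parental 231+siMyc (log2 difference 1.42 ± 0.12, SE, adjusted p = 8.1e-07). SNHG12 had 8.51, 8.10 and 7.22 CPM against 4.43, 4.27 and 5.64 CPM (0.74 ± 0.14, adjusted p = 0.00073). SNHG26 had 1.93, 1.86 and 1.56 CPM against 1.2, 1.22 and 1.28 CPM (0.53 ± 0.18, adjusted p = 0.028). No library of one group reached into the other.

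SNHG19 had 1.30, 1.32 and 1.16 CPM in 231:TKO+siMyc against 3.94, 3.89 and 6.26 CPM in parental 231+siMyc (-1.89 ± 0.21, SE, adjusted p = 1.2e-05). SNHG25 had 0.595, 0.648 and 0.553 CPM against 1.71, 1.32 and 2.68 CPM (-1.66 ± 0.28, adjusted p = 0.00039). SNHG32 had the difference of -1.14 ± 0.13 (adjusted p = 1.6e-05). The other lower members were ZFAS1 (-0.72), SNHG11 (-0.69), SNHG30 (-0.69), GAS5 (-0.55), SNHG8 (-0.47), SNHG29 (-0.34) and DANCR (-0.32). With the pair of parental libraries left out 5 members were higher and 10 lower, beside 31.1% and 36.5% of the genes, and under siNT 7 were higher and 8 lower, beside 30.5% and 34.8%. The ribosomal protein hosts stood beside them with 16 of 28 lower under siNT and 22 of 28 lower under siMyc, none higher. Without the pair, 16 were lower and 4 higher under siNT and 23 lower and none higher under siMyc.

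**Figure D5:**
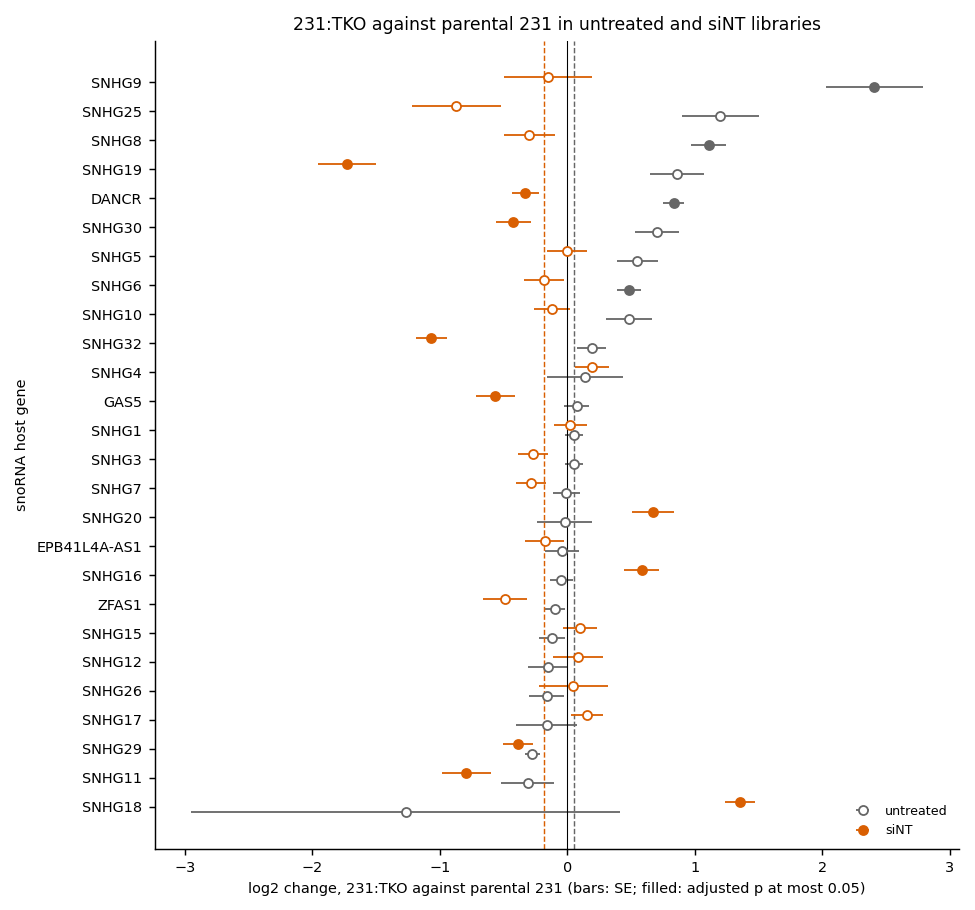
Log2 difference of 231:TKO against parental 231 for each of the 26 members (rows), untreated and with siNT. Bars are standard errors, and filled symbols mark an adjusted p of at most 0.05. Dashed lines lie at the median of the 26 members (0.05 and -0.18). SNHG8, SNHG9, DANCR and SNHG6 are filled above 0 untreated. With siNT, SNHG8, SNHG9 and SNHG6 are not filled, and DANCR is filled below 0. SNHG19 and SNHG32 are filled below 0 with siNT.

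The knockout difference itself changed between the untreated and the siNT cells. It was higher untreated for 7 of the 26 members and lower for none, where 13.9% and 10.3% of 13448 genes at 1 CPM or more were called, and the median over the members was 0.36. With DESeq2's size factors the split was 7 higher and 1 lower, beside 12.9% and 11.1% of those genes. The 7 were SNHG19 (2.59), SNHG9 (2.57), SNHG25 (2.08), SNHG8 (1.41), SNHG32 (1.26), DANCR (1.17) and SNHG30 (1.13), values on the log2 scale. SNHG19 had 2.54 and 2.19 CPM in parental 231 and 4.60 and 4.01 CPM in 231:TKO, the reverse of its order with siNT given above. SNHG25 had 0.763 and 0.597 CPM in parental 231 and 1.47 and 1.68 CPM in 231:TKO, and with siNT 4.17, 2.11 and 1.92 CPM in parental 231 beside the 231:TKO+siNT values given above. SNHG9, whose untreated values are given above, had with siNT 3.24, 1.43 and 1.32 CPM in parental 231 and 1.31, 2.05 and 1.89 CPM in 231:TKO. The groups of SNHG19 did not overlap in either setting, and those of SNHG9 and SNHG25 overlapped with siNT only. DANCR was higher in 231:TKO untreated (0.83) and lower with siNT (-0.33), both past the test. Because all untreated libraries are single reads and all siRNA libraries read pairs, setting and read type cannot be told apart. Without replicate 1 of parental 231, which leaves 1 library in that group, fewer members were called. Without replicate 1 of 231:TKO+siNT 6 members were called, beside 9.9% of the genes at 1 CPM or more higher and 7.34% lower. Without replicate 1 of parental 231+siNT 10 members were called, beside 23% and 12.2%.

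The 6 members under 1 CPM were SNHG21 at 0.797 CPM, SNHG31 at 0.392, SNHG22 at 0.066, and SNHG27, SNHG28 and SNHG14 below it. With siMyc in 231:TKO 3 of them could be tested and 1, SNHG27, was lower. It rested on few reads, with 8, 4 and 3 counts with siNT and 1, 0 and 1 with siMyc. In parental 231 its log2 change was 0.75 and did not pass. Counting all 32 members, 29 were tested in 231:TKO with siMyc, 25 were lower and 1 higher. Of all 22450 genes tested there, 3117 were lower and 2989 higher. Of 97 snoRNA genes that lie inside members in the files, 15 had any count. SNORD104 had 844 counts over the 16 libraries beside 1018 for its host SNHG25, SNORD99 had 184 beside 6024 for SNHG12, and SNORA13 had 33 beside 5520 for EPB41L4A-AS1.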

How the data were processed

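RNA-seq libraries of MDA-MB-231 cells were made with a stranded kit after capture of mRNA, and, per the study's methods and the file headers, reads were aligned with STAR to GRCh38 and counted per Ensembl gene, by strand, with featureCounts 1.6.3. The authors deposited 1 table of raw counts per library, and these whole-number counts were used as they stand. Gene symbols were found for 96.7% of the 60719 identifiers. Counts were scaled with TMM factors, and each comparison was fitted in edgeR 4.0.16 (R 4.3.3) with the quasi-likelihood test, keeping genes whose counts across the fitted libraries came to over 5, with Benjamini-Hochberg adjustment over all genes tested and a threshold of 0.05. Standard errors are those of the log2 change in this fit. Levels are CPM with TMM factors over the 16 libraries, and intervals of 95% use the t distribution of the fit.

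The members and gene lists were chosen with earlier results of these data known. Any member at 1 CPM or more could be named. Values in every library are given for the 8 most abundant members and, in each comparison, for the 3 largest called changes each way, and other lists by their counts with the 2 largest called changes each way.

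SnoRNA names, start sequences and promoters are from RefSeq (GRCh38.p14). Alternatives were DESeq2 1.42.0, its size factors, other filters, a threshold of 0.01, offsets corrected for gene length, 1 fit of all siRNA libraries, each library left out and the replicate number as a block; a term for, or the removal of, a pair of parental libraries was chosen after seeing the data. The code was tested on simulated data. The labels do not say whether replicate numbers pair the samples, and the main fits did not pair them. Deviations of same-numbered libraries correlated from -0.10 to 0.21 in the siRNA libraries of 231:TKO and from -0.77 to 0.58 in those of parental 231. With 3 libraries per group these values cannot settle it.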

Additional observations from a re-analysis of the deposited data

Results flagged for a closer look

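For 7 members the difference between 231:TKO and parental 231 was not the same in untreated cells as with siNT, by a test of that difference in 1 edgeR fit of 10 libraries. On the log2 scale the untreated value exceeded the siNT value by 2.59 for SNHG19 (adjusted p = 0.00024, untreated 0.86, siNT -1.73), 2.57 for SNHG9 (adjusted p = 0.016, untreated 2.41, siNT -0.15) and 2.08 for SNHG25 (adjusted p = 0.030, untreated 1.2, siNT -0.87). It exceeded it by 1.41 for SNHG8 (adjusted p = 0.015, untreated 1.11, siNT -0.30), 1.26 for SNHG32 (adjusted p = 0.00047, untreated 0.19, siNT -1.07), 1.17 for DANCR (adjusted p = 0.00037, untreated 0.83, siNT -0.33) and 1.13 for SNHG30 (adjusted p = 0.0053, untreated 0.70, siNT -0.42). DANCR, SNHG19, SNHG30 and SNHG32 were called under all 18 alternatives, SNHG9 under 13 of 17, SNHG8 under 12 of 18 and SNHG25 under 10 of 18. The exon models of SNHG19, SNHG9 and SNHG25 are short, at 342, 551 and 278 bases. Whether read type, sequencing run or the siRNA procedure has a part in this was not tested.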

How the results depend on the processing

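In untreated cells the 4 calls among the members became 0 at an adjusted p of at most 0.01, and 0 to 13 when 1 library was left out. In the siMyc comparison of 231:TKO the 25 calls became 12 in 1 fit of the 12 siRNA libraries and 23 to 24 with 1 library left out. In parental 231 the 2 calls of that comparison became 0 at 0.01, 10 with DESeq2, 6 with genes of at least 1 count and 5 with offsets corrected for gene length. They became 13 in 1 fit of the siRNA libraries and 0 to 5 with 1 library left out. Of the genes at 1 CPM or more, 4.61% were lower and 3.47% higher with DESeq2, and 1.5% and 0.885% with genes of at least 1 count. The shares were 4.38% and 3.27% with those offsets and 6.63% and 5.12% in 1 fit. Where leaving out 1 library left 0 members called, 0 of these genes were called too. Chosen after seeing the data, a term for the pair of parental libraries gave 22 member calls and their removal 20. Under siNT the 10 calls for the knockout became 6 at 0.01, 16 with that term and 6 to 15 with 1 library left out. With that term 30% of the genes at 1 CPM or more were higher and 37.4% lower. Under siMyc the 13 became 9 to 15 with 1 library left out. The fits that gave 9 called 19.8% to 21% of those genes higher and 22.9% to 24.1% lower. The fit that gave 15 called 31.1% higher and 36.5% lower. The interaction of siMyc with the knockout gave 0 calls in each of these settings. The 7 calls for the untreated minus siNT difference became 4 at 0.01 and 4 to 10 with 1 library left out. Their cause was not tested, apart from the smaller number of samples where a library was left out. Averaged over the 16 libraries, the summed level of all 32 members was 1016.5 CPM without TMM factors, against 1017.2 CPM with them. The factors average out over the libraries, so this cannot show how scaling acts on a comparison. They ran from 0.951 in parental 231+siMyc replicate 1 to 1.04 in parental 231 replicate 2.

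With the replicate number as a block, which the labels do not tie to a shared day or culture, 2 members were called in untreated cells, 25 in 231:TKO with siMyc, 0 in parental 231 with siMyc, 11 and 12 for the knockout under siNT and siMyc, 0 for the interaction and 8 for the untreated minus siNT difference. In the block fit of parental 231 with siMyc 0 of 13439 genes at 1 CPM or more were called, so its 0 says nothing about the members. In untreated cells 3.89% of these genes were higher and 2.55% lower under the block, and in 231:TKO with siMyc 23.4% and 24.6%. Whether the numbers pair the samples is not known, so what a call lost under the block means cannot be told.

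Of the directions that turned, those past the test in the alternative were as follows. SNHG4 stood at -0.36 (adjusted p = 0.018) in untreated 231:TKO without replicate 2 of 231:TKO, within -0.36 to 0.49 over the libraries left out. SNHG5 stood at 0.25 (adjusted p = 0.00029) for the knockout under siNT without replicate 1 of parental 231+siNT or without the pair, within -0.11 to 0.25 over the libraries left out, at 0.22 (adjusted p = 0.00043) with the term for the pair, and under siMyc at 0.15 (adjusted p = 0.015) with that term. With 2 or 3 libraries per group and members as low as 1.5 CPM, differences in the low hosts were measured least precisely.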
